A study of Mus musculus with 5 samples.

Results

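Aminoacyl-tRNA synthetases were examined in ribosome profiling data from mouse embryonic stem cells (mESCs), cultured pluripotent cells of the early embryo. The set was fixed by gene symbol and held 36 genes, of which 20 encode cytosolic enzymes and 16 encode mitochondrial enzymes. All 36 were found, out of 21870 genes with a protein-coding transcript in the table, and all 36 were among the 12372 of these genes that passed the filter of 1 CPM (counts scaled to the size of the library) in at least 1 library. Each gene was represented by its most abundant protein-coding transcript.

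The comparison was between standard RIBO-seq (3 libraries), in which ribosomes were pelleted through a 30% sucrose cushion, and AHARIBO RIBO-seq (2 libraries), in which nascent peptides carrying the methionine analogue L-azidohomoalanine (AHA) were linked to biotin and captured on magnetic beads. All 5 libraries came from mESCs labelled as untreated, with no genotype given, pre-treated with cycloheximide, and treated in the lysate with RNase I (1.3 U, 45 min), and fragments of 25 to 35 nt were sequenced. The paper's AHARIBO protocol depletes the cells of methionine before AHA is added, and the paper names this starvation as its main limitation. Standard RIBO-seq was performed on the input. Whether those cells had also been depleted of methionine and given AHA is not stated for this experiment. The labels give biological replicates, but not which libraries share a culture.

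An aminoacyl-tRNA synthetase joins an amino acid to its transfer RNA (tRNA), which then carries it to the ribosome. Cytosolic enzymes serve cytosolic ribosomes, and a separate set encoded in the nucleus serves the ribosomes of mitochondria. Several cytosolic enzymes sit in a multisynthetase complex held together by the scaffold proteins Aimp1, Aimp2 and Eef1e1. The set touches the method itself, since AHA enters proteins after methionyl-tRNA synthetase, encoded by Mars in the cytosol, has charged it onto the methionine tRNA in place of methionine.

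The libraries held between 6403651 and 11150527 deposited counts after removal of duplicate reads. Transcripts of 1 gene with the same sequence had nearly equal counts, so these totals can count a read more than 1 time, and counts over the most abundant protein-coding transcripts alone came to between 1771077 and 3116662. A floor of 3 counts was worth 0.262 to 0.476 CPM, and every member lay above 1 CPM in every library. All 10 embryonic stem cell markers examined had mean levels from 49.2 to 247 CPM. Among them, the pluripotency genes Sox2, Klf4 and Utf1 were called lower in AHARIBO RIBO-seq, with log2 fold changes of -0.32, -0.34 and -0.34, and lost the call with the replicate block (adjusted p of 0.101, 0.0881 and 0.0971) and with transcripts summed per gene (0.145, 0.0666 and 0.0975). DESeq2 gave adjusted p of 0.0648 and 0.0609 for Sox2 and Klf4, and of 0.0119 for Utf1, which kept its call. Without standard replicate 1 these were 0.0837, 0.0809 and 0.0671, and without AHARIBO replicate 1 0.396, 0.134 and 0.179. The 5 endoderm markers summed to between 4.02 and 7.61 CPM per library and the 6 fibroblast markers to between 5.63 and 6.39 CPM, with Dcn at 0 in every library, while the 6 neural markers summed to between 42.0 and 46.4 CPM, most of it Tubb3. In these bulk lysates, fewer cells and less RNA per cell cannot be told apart.

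No cytosolic synthetase was called as different between the methods, and only 1 of the 16 mitochondrial enzymes, Lars2, was called, with higher counts in AHARIBO RIBO-seq. Calls were made with edgeR's quasi-likelihood test at an adjusted p under 0.05, adjusted over all 66972 transcripts tested, of which 4.51% were called. Among the most abundant protein-coding transcripts of all genes, 5.12% were called, 2.59% as higher (321) and 2.53% as lower (313) in AHARIBO RIBO-seq. With library size as the only scaling, the split over all genes was 438 higher and 236 lower. A call for 1 of 36 members does not set them apart from this background, and the difference was not tested.

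The cytosolic enzymes differed very little between the methods. Of the 20, 0 were called, by edgeR or by DESeq2, and only Dars had an unadjusted p under 0.05. Log2 fold changes (AHARIBO over standard) ran from -0.15 to 0.20, with a median of -0.0096 beside -0.0032 over all genes. Positive values were found for 9 genes and negative values for 11. Every 95% confidence interval lay within a 1.5-fold change in either direction, and the widest bounds were 0.814-fold and 1.28-fold. These intervals bound a difference, and a test that was not passed does not show that the levels were equal.

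**Figure D1:**
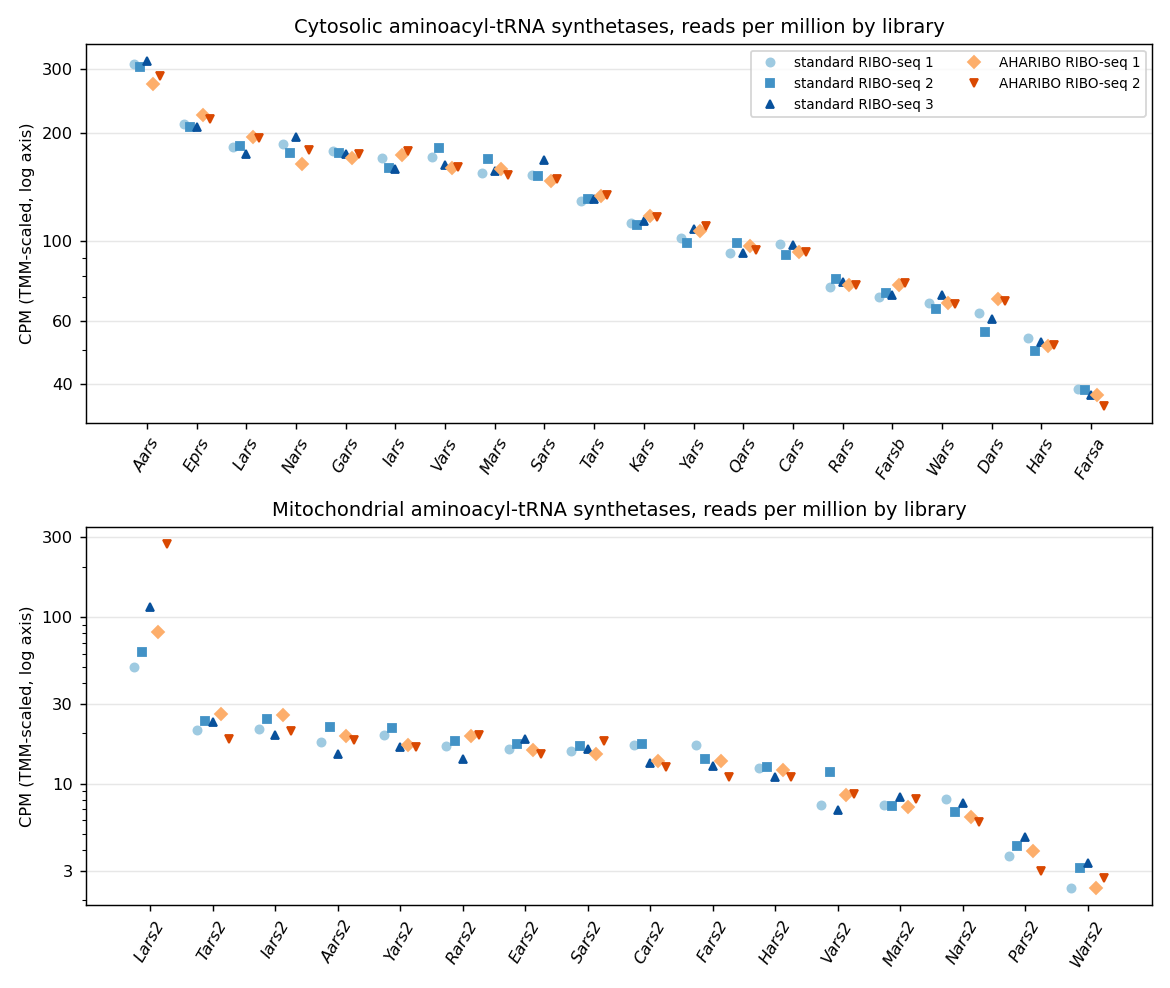
CPM (log axis) of each cytosolic (top) and mitochondrial (bottom) synthetase in each of the 5 libraries; genes run from the highest to the lowest mean, and each point is 1 library. The 5 points of most genes nearly coincide, while those of Lars2 run from 50.0 to 275 CPM.

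Dars, which encodes the aspartyl enzyme of the multisynthetase complex, had the highest log2 fold change of the cytosolic group. Its levels were 63.3, 56.1 and 60.9 CPM in standard RIBO-seq and 69.1 and 68.4 CPM in AHARIBO RIBO-seq. Both AHARIBO libraries therefore lay above all 3 standard libraries. The log2 fold change was 0.20 ± 0.082 (SE), with an adjusted p of 0.168 in edgeR.

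Iars and Lars, which encode the isoleucyl and leucyl enzymes of the same complex, came next. Iars had 170, 159 and 159 CPM in standard RIBO-seq and 173 and 177 CPM in AHARIBO RIBO-seq. Lars had 182, 183 and 175 CPM against 194 and 193 CPM. Neither gene overlapped between the groups, and the log2 fold changes were 0.11 ± 0.076 and 0.10 ± 0.075 (SE), with adjusted p of 0.474 and 0.484 in edgeR.

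The lowest log2 fold changes belonged to Aars, Nars and Vars, which charge alanine, asparagine and valine and are not in the complex. Aars was also the most abundant member in CPM, with 309, 303 and 316 CPM in standard RIBO-seq and 272 and 287 CPM in AHARIBO RIBO-seq. Its log2 fold change was -0.15 ± 0.075 (SE, adjusted p = 0.288 in edgeR). Nars had 186, 175 and 194 CPM against 163 and 179 CPM, so that its groups overlapped, and a log2 fold change of -0.11 ± 0.078 (SE). Vars had 171, 181 and 162 CPM against 160 and 161 CPM, with the AHARIBO libraries just below the lowest standard library, and a log2 fold change of -0.099 ± 0.077 (SE). The adjusted p of these last genes were 0.457 and 0.521.

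Mars is named here for its role with AHA and not for its values. It had 155, 169 and 156 CPM in standard RIBO-seq, a mean of 160 ± 7.998 (SD, n = 3), and 158 and 153 CPM in AHARIBO RIBO-seq, a mean of 156 ± 4.00 (SD, n = 2). Both AHARIBO values fell in or just below the standard range. The log2 fold change was -0.041, with a 95% confidence interval from -0.20 to 0.11, so that the data exclude neither equal levels nor a shift of a few percent. Mars2, its mitochondrial counterpart, had a log2 fold change of 0.013 ± 0.16 (SE).

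The 8 enzymes of the multisynthetase complex (Dars, Eprs, Iars, Kars, Lars, Mars, Qars and Rars) and the 12 cytosolic enzymes outside it were described side by side. In the complex, 6 of 8 log2 fold changes were positive, with a median of 0.073. Outside it, 3 of 12 were positive, with a median of -0.033. None of the 20 was called, and the difference between these lists was not tested. The AHARIBO libraries lay above the standard libraries without overlap for 5 complex genes (Dars, Eprs, Iars, Kars and Lars) and below for none. Of the genes outside the complex, 2 lay above (Farsb and Tars) and 4 below (Aars, Gars, Sars and Vars). Over all genes, 17.2% lay above and 17.1% below without overlap, so separated groups are common at this number of libraries.

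The 3 scaffold proteins of the complex, which bind the enzymes and have no charging activity, were not called either. Aimp1, Aimp2 and Eef1e1 had log2 fold changes from -0.015 to 0.059 and mean levels from 26.4 to 47.1 CPM. Splitting the cytosolic enzymes by catalytic fold gave medians of -0.0050 for 9 class I and -0.023 for 10 class II genes. Eprs, which joins a class I glutamyl and a class II prolyl enzyme in a single protein, was left out of that split.

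Of the cytosolic genes, 13 were listed as textbook targets of ATF4, a transcription factor of the amino acid response that binds the element TGATGNAA. Their median log2 fold change was -0.031, beside 0.018 for the other 7 cytosolic genes. RefSeq promoters (build GRCm38.p6, from 250 bases before to 50 bases after the annotated start) were at hand for 27 of the 36 members. The 8 letters TGATGNAA, or TTNCATCA on the opposite strand, were found for 5 of 13 cytosolic genes and 0 of 14 mitochondrial genes with a promoter. All 5 belong to the ATF4 list, of which 8 had a promoter. Over all 27025 genes of the promoter table, 4.51% held a match. For each of the 5 genes, 1 match is shown, because matches were found among the cytosolic genes and in no mitochondrial promoter searched. The 8 letters are in capitals, read 5′ to 3′ on the strand of the gene, and positions are those of the first capital.
Aars, at 9 from the start, chr8:111033840-111033869, + strand: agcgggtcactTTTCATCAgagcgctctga
Gars, at -30 from the start, chr6:55037960-55037989, + strand: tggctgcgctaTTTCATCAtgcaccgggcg
Iars, at 7 from the start, chr13:49682126-49682155, + strand: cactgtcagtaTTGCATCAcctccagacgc
Tars, at -15 from the start, chr15:11399655-11399684, - strand: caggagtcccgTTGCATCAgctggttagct
Yars, at 3 from the start, chr4:129189895-129189924, + strand: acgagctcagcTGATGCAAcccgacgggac
A match describes the letters only, and binding was not measured here. The 5 genes did not move together between the methods: Iars, Tars and Yars had log2 fold changes of 0.11, 0.041 and 0.075, and Aars and Gars of -0.15 and -0.031, and none was called.

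**Figure D2:**
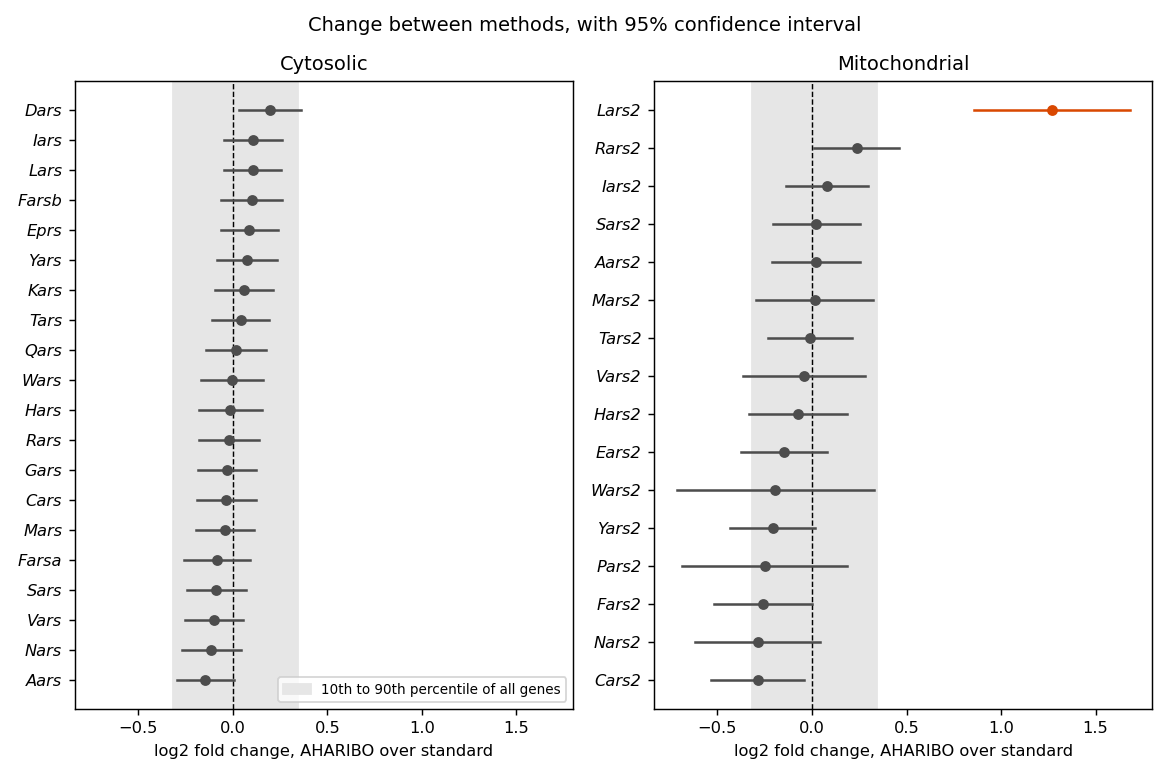
Log2 fold change of each member (x axis, AHARIBO over standard RIBO-seq; points) with its 95% confidence interval (lines), for cytosolic (left) and mitochondrial (right) enzymes; the grey band spans the 10th to 90th percentile of all genes, from -0.32 to 0.34, and the called gene is in orange. All 20 cytosolic points lie inside the band, and Lars2, at 1.27, lies far outside it.

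Mitochondrial enzymes had lower counts and wider spread. Apart from Lars2, 0 of 15 were called by edgeR, and 3 had an unadjusted p under 0.05 (Cars2, Fars2 and Rars2). DESeq2 called none of them and gave no adjusted p for Mars2, Nars2, Pars2, Vars2 and Wars2. Their log2 fold changes ran from -0.29 to 0.24, with a median of -0.076. Positive values were found for 5 genes and negative values for 10. For 12 of the 15, the 95% confidence interval stayed within a 1.5-fold change, and the widest bounds were 0.609-fold and 1.38-fold.

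Rars2, which charges arginine in mitochondria, had the next highest log2 fold change after Lars2. Levels were 16.8, 18.1 and 14.1 CPM in standard RIBO-seq and 19.3 and 19.7 CPM in AHARIBO RIBO-seq, without overlap, and the log2 fold change was 0.24 ± 0.11 (SE, adjusted p = 0.236 in edgeR). Iars2, for isoleucine, had 21.2, 24.5 and 19.7 CPM against 25.6 and 20.6 CPM. Its groups overlapped, and its log2 fold change was 0.080 ± 0.11 (SE).

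Cars2, Nars2 and Fars2, for cysteine, asparagine and phenylalanine, had the lowest log2 fold changes. Cars2 had 17.03, 17.2 and 13.3 CPM in standard RIBO-seq and 13.7 and 12.6 CPM in AHARIBO RIBO-seq, so that 1 standard library fell between the AHARIBO libraries. Nars2 had 8.07, 6.73 and 7.61 CPM against 6.30 and 5.89 CPM, without overlap. Fars2 had 17.1, 14.0 and 12.7 CPM against 13.6 and 10.98 CPM, with overlap. The log2 fold changes were -0.29 ± 0.12, -0.29 ± 0.16 and -0.26 ± 0.13 (SE), and the adjusted p in edgeR were 0.179, 0.354 and 0.266.

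Lars2, which encodes mitochondrial leucyl-tRNA synthetase, was the exception. Its transcript had 50.0, 61.8 and 114 CPM in standard RIBO-seq and 81.6 and 275 CPM in AHARIBO RIBO-seq. AHARIBO replicate 1 lay below standard replicate 3, so the groups overlapped, and replicate 2 alone was far above the rest. The log2 fold change was 1.27 ± 0.21 (SE), with an adjusted p of 4.14e-05 in edgeR. Without AHARIBO replicate 2, it was 0.16 ± 0.12 (SE), with an adjusted p of 0.517, in a fit where the lone AHARIBO library is assumed to vary like the standard libraries. DESeq2 gave 1.24 ± 0.77 (SE, adjusted p = 0.502), and with transcripts summed per gene edgeR gave 1.25 ± 0.41 (SE, adjusted p = 0.189). The call thus rested on 1 library, and it was made by edgeR on transcripts but not by DESeq2 on the same transcripts or by edgeR on summed counts.

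The transcripts of Lars2 had very unequal counts. Lars2 lies at chr9:123366927-123462664 on the + strand (build GRCm38). Its most abundant transcript has 21 exons and 3894 nt, with the coding sequence at nt 200 to 2905 and a 3′ untranslated region (UTR) of 986 nt in the last exon. Within this 3′ UTR, a stretch of 382 nt (nt 3032 to 3413, chr9:123461802-123462183) aligned with at least 5 other places in the genome at every base. It overlapped 31 alignments elsewhere, on 16 chromosomes, the longest of 244 nt with 97.5% identity. No part of the transcript outside the stretch, the coding sequence included, had an alignment that did not reach into it (blastn, e-value up to 1e-10).

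Transcripts with and without the stretch differed in their counts, while the positions of reads along a transcript were not measured. Of 9 Lars2 transcripts in the table, 3 held at least part of it, and those 3 were the ones called. The transcript subject to nonsense-mediated decay, with the whole stretch, had 49.6, 61.4 and 114 CPM in standard RIBO-seq and 81.0 and 274 CPM in AHARIBO RIBO-seq, close to the protein-coding transcript. A retained-intron transcript with 69 of the 353 windows of 30 nt in the stretch had 6.05, 6.62 and 16.02 CPM against 10.3 and 39.9 CPM. The 6 transcripts without the stretch, which include protein-coding ones, had from 0.262 to 1.84 CPM in any library, and 0 of the 4 tested were called. The log2 fold changes of those 4 ran from -0.20 to 1.04. At such low counts, the lack of a call does not set their fold changes apart from those of transcripts with the stretch. Per kb of transcript, these 6 had mean levels from 0.239 to 2.07 CPM, and the 3 with the stretch from 17.8 to 30.9 CPM.

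Windows of 30 nt in the stretch also occurred in other genes, 23 in Gm15564 and 29 in AA474408, and 7 in both. The first of these 7 is printed because a read of footprint length from it cannot be assigned to 1 gene. It lies at nt 3278 to 3307 of the transcript, chr9:123462048-123462077, + strand.
Lars2, Gm15564 and AA474408: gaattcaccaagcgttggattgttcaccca
AA474408 had 15.01, 18.9 and 27.1 CPM in standard RIBO-seq and 20.4 and 67.0 CPM in AHARIBO RIBO-seq. Gm15564 had 7.51, 6.40 and 10.6 CPM against 9.89 and 28.7 CPM. In both, as in Lars2, standard replicate 3 and AHARIBO replicate 2 were the highest libraries of their groups. Both were called higher, with log2 fold changes of 1.12 and 1.24 and adjusted p of 0.00037 and 0.00013 in edgeR.

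Gm42418, which RefSeq lists as a synonym of an rRNA-related pseudogene, and AY036118, which lies within the span of Gm42418, were also highest in standard replicate 3 and AHARIBO replicate 2 of their groups. Gm42418 had 438, 455 and 791 CPM in standard RIBO-seq and 485 and 1139 CPM in AHARIBO RIBO-seq. AY036118 had 269, 275 and 534 CPM against 268 and 788 CPM. Since the annotated spans overlap, these may not be separate observations. Their log2 fold changes were 0.54 and 0.56, with adjusted p of 0.0359 and 0.0704 in edgeR. The part of rRNA fragments in the Lars2 counts was not tested, and the stretch was not compared with the 28S rRNA sequence.

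**Figure D3:**
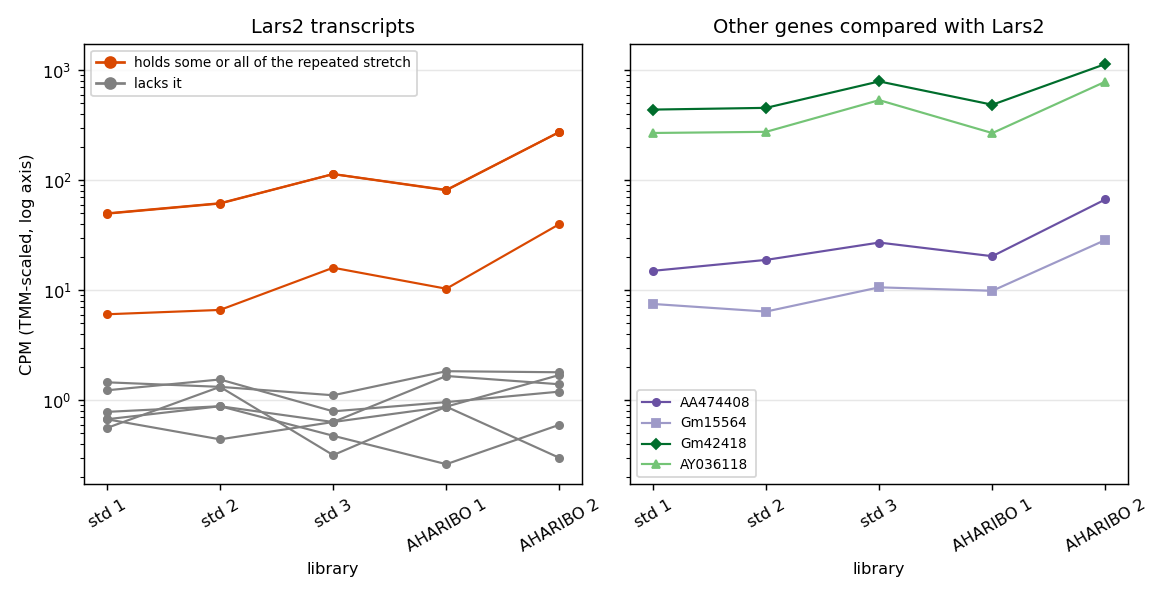
CPM (log axis) by library for the 9 Lars2 transcripts (left; orange with some or all of the 382-nt stretch, grey without) and for 4 other genes (right); std is standard RIBO-seq, and lines join values of 1 transcript. Orange lines and the 4 other genes are highest in AHARIBO replicate 2, whereas the grey lines stay between 0.262 and 1.84 CPM.

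Duplicate removal acted on Lars2 unlike on the other members. It had taken 75.6% of the Lars2 reads in AHARIBO replicate 2 (from 11279), and 34.6% to 42.8% in the other libraries. Over the other 35 members, between 0% and 49.7% of the reads were removed in any library. With duplicates kept, the log2 fold change of Lars2 was 2.38 ± 0.58 (SE, adjusted p = 0.0445 in edgeR).

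Other members shared less, or shared it without a call. Of all windows of 30 nt in the Aars transcript, 22.7% also occurred in Exosc6, an exosome subunit gene, all of them outside the Aars coding sequence. Exosc6 had 22.2, 17.8 and 18.4 CPM in standard RIBO-seq and 15.2 and 14.0 CPM in AHARIBO RIBO-seq, far below Aars. For Iars, 18.4% of windows were shared, 794 of them, all coding, with the processed pseudogene Gm4849. Gm4849 was listed at 34.2, 34.8 and 34.9 CPM against 39.3 and 38.6 CPM, so the split of reads between it and Iars is uncertain. Kars, Wars2, Tars, Lars2 and Vars shared from 1.16% to 4.04%, and the remaining members under 1%.

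The share of reads on the cytosolic enzymes was slightly higher in AHARIBO RIBO-seq. They took 0.929%, 0.923% and 0.934% of the counts on the most abundant protein-coding transcripts in standard RIBO-seq and 0.948% in each of the AHARIBO libraries, so that the groups did not overlap. This difference was not tested, and the shares come from counts without the TMM factors used for CPM. With those factors, the median log2 fold change of these genes was -0.0096, beside -0.0032 over all genes. Of single genes in CPM, 17.2% lay above without overlap. The 95% binomial intervals (Clopper-Pearson, counting error only) ran from 0.911% to 0.948% over the standard libraries and from 0.937% to 0.960% over the AHARIBO libraries. The interval of standard replicate 2 (0.911% to 0.935%) lay below those of both AHARIBO libraries, and the intervals of standard replicates 1 and 3 overlapped them. With duplicates kept, the mean shares were 0.747% and 0.815%. Mitochondrial enzymes took 0.0900%, 0.100% and 0.109% against 0.106% and 0.168%. Without Lars2, these shares were 0.0723%, 0.0785% and 0.0682% against 0.0756% and 0.0687%, with overlap between the methods.

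Levels within the set were compared per kb of transcript, over all 5 libraries. Cytosolic enzymes had a median of 37.6 CPM per kb. The highest was Gars, the glycyl enzyme, which also serves mitochondria, at 73.4 ± 1.16 CPM per kb (SD, n = 5). Its libraries had 178, 176 and 175 CPM in standard RIBO-seq and 170 and 175 CPM in AHARIBO RIBO-seq. Farsa, the alpha subunit of the phenylalanyl enzyme, was the lowest at 20.5 ± 0.866 CPM per kb, with 39.0, 38.6 and 37.4 CPM against 37.4 and 35.0 CPM.

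The order was resolved only in steps. After Gars and Nars came Kars, Mars, Aars, Lars, Eprs, Sars, Vars, Iars, Farsb, Rars, Yars, Qars, Tars, Cars, Dars, Hars, Wars and Farsa. Of the 19 neighbouring pairs in this order, 14 did not differ beyond their spread (mean ± SD over the 5 libraries). The 5 steps that did were from Nars to Kars, Lars to Eprs, Tars to Cars, Hars to Wars and Wars to Farsa. Per kb of coding sequence, an alternative added after the values were seen, Nars was the highest at 107 CPM, and Farsa was still the lowest at 24.6 CPM.

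The phenylalanyl enzyme is built of equal numbers of alpha and beta subunits, from the genes Farsa and Farsb. Per kb of coding sequence, Farsb had 41.3 ± 1.63 CPM and Farsa 24.6 ± 1.04 CPM (SD, n = 5). Farsb was also above Farsa in CPM in every library, at 69.9, 71.9 and 70.9 CPM in standard RIBO-seq and 75.4 and 76.5 CPM in AHARIBO RIBO-seq. The enzymes of the multisynthetase complex lay between 38.5 and 63.9 CPM per kb of coding sequence.

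Mitochondrial enzymes had a median of 5.98 CPM per kb of transcript. Apart from Lars2, at 29.9 CPM per kb, the highest was Yars2, the tyrosyl enzyme, at 11.6 ± 1.39 CPM per kb. Wars2, the tryptophanyl enzyme, was the lowest at 0.627 ± 0.0991 CPM per kb, with 2.35, 3.09 and 3.33 CPM in standard RIBO-seq and 2.36 and 2.70 CPM in AHARIBO RIBO-seq. In between, the order was Rars2, Tars2, Sars2, Ears2, Cars2, Fars2, Aars2, Iars2, Hars2, Vars2, Nars2, Pars2 and Mars2. Of its 15 neighbouring pairs, 11 did not differ beyond their spread, and the steps that did were from Aars2 to Iars2, Hars2 to Vars2, Nars2 to Pars2 and Pars2 to Mars2. The coefficient of variation over the 5 libraries ran from 6.20% to 21.3% without Lars2, from 1.58% to 8.53% for the cytosolic enzymes, and was 78.8% for Lars2.

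In 16 pairs of enzymes for the same amino acid, the cytosolic enzyme was above the mitochondrial one in all 5 libraries for 15 pairs. Eprs was paired with both Ears2 and Pars2, and Farsa with Fars2. The ratio of levels per kb of transcript had a median of 6.38. Mars and Mars2 gave the highest ratio, 79.4, but the Mars2 transcript is 11294 nt long and encodes only 586 codons. Per kb of coding sequence that ratio was 13.4, the median was 5.94, and the highest ratio was 22.2, for Nars and Nars2. The exception among the 16 was Lars and Lars2, at 1.22 per kb of coding sequence, with ratios from 0.538 to 2.80 over the libraries.

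**Figure D4:**
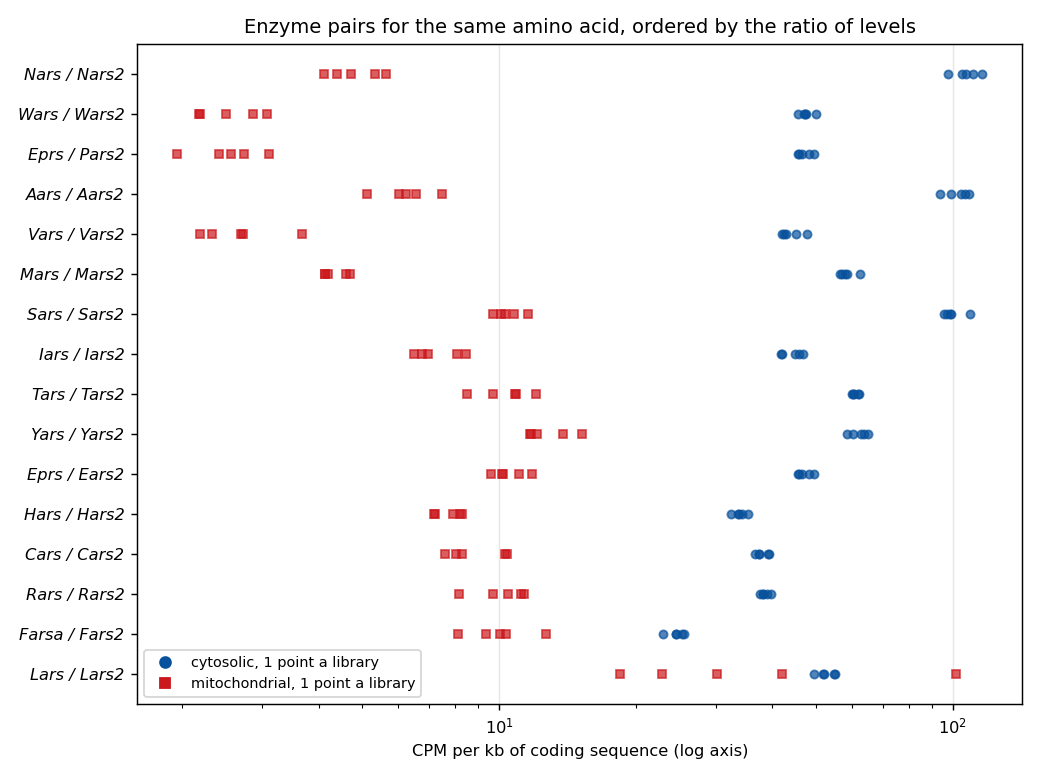
Level per kb of coding sequence (x axis, CPM per kb, log axis) of the cytosolic (blue circles) and mitochondrial (red squares) enzyme of each pair, 1 point a library. Cytosolic points lie to the right of the mitochondrial points in every pair except Lars and Lars2, where they overlap.

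Methionine content was examined because AHA takes the place of methionine in the captured peptide. Cytosolic members had a median of 16.5 ATG codons in frame in the Gencode M21 coding sequence, mitochondrial members 10.5, and all genes 10. The extremes were Lars with 39 and Mars2 with 2, and their log2 fold changes were 0.10 and 0.013. Across the 20 cytosolic genes, the number of methionines and the log2 fold change had a Pearson correlation of 0.20 and a Spearman correlation of 0.10. Across the 15 mitochondrial genes without Lars2, these were 0.35 and 0.38, and across 12226 genes with a coding sequence 0.17 and 0.26. The log2 coding length gave 0.062 and 0.021 for cytosolic genes, 0.54 and 0.62 for mitochondrial genes without Lars2, and 0.22 and 0.28 for all genes. Over all genes, methionines per 100 codons gave -0.016 and 0.00092. These are descriptions across genes that share the same 5 libraries.

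Among genes listed for tRNA maturation, charging or delivery, 17 are described here, and none of them was called by edgeR, while Yrdc and Osgep had an unadjusted p under 0.05. Their log2 fold changes ran from -0.26 (Yrdc, adjusted p = 0.0932) to 0.24. They include Gatb, Gatc and Qrsl1, subunits of the amidotransferase that makes glutaminyl-tRNA in mitochondria, where no separate glutaminyl synthetase is used, and Qars, the cytosolic glutaminyl enzyme, had a log2 fold change of 0.018.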

How the data were processed

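The authors trimmed reads with Trimmomatic 0.36, discarded reads under 20 nt, removed rRNA and tRNA reads, aligned the rest to Gencode M17 transcripts with STAR (GRCm38.p6), removed antisense and duplicate reads, and deposited counts per transcript for 3 standard and 2 AHARIBO libraries. How reads matching several transcripts were counted is not stated. Here, transcripts were named through Gencode M21 (99.760% of 135276 matched), which also gave coding sequences, used to count methionines in place of the RefSeq proteins first planned. CPM were scaled with edgeR 4.0.16 under R 4.3.3 (TMM factors from the whole table), and transcripts with 1 CPM in at least 1 library were tested by the quasi-likelihood test, without a block, with Benjamini-Hochberg adjustment. Standard errors, from the log2 fold change and F, and the 95% intervals built on them are approximate. The comparison was repeated in DESeq2 1.42.0. Both tests were tested on simulated data. Genome alignments used blastn 2.17.0. In the count table, 0 per-sample columns were left out for want of a label.

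The members and lists were chosen with earlier results of these data known. Values in every library are given for called members, the 3 highest and 3 lowest log2 fold changes and the highest and lowest level per kb in each group, with Mars, Farsb and the genes sharing sequence with members added. Genes of the lists are named where called, and a few items are not reported here. Alternatives covered the test, scaling, filter, replicate block, duplicates, the transcript used, thresholds and leaving out each library. Footprint positions, RNA-seq and mass spectra were not analysed here.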

Additional observations from a re-analysis of the deposited data

How the results depend on the processing

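The call of 1 member rested on Lars2. The number of members called was 0 with DESeq2, with transcripts summed per gene, and under the study's stricter rule for RNA-seq (adjusted p of 0.01 or less and a log2 fold change past 1.5), and from 0 (without AHARIBO replicate 2) to 1 when each library was left out. Leaving out an AHARIBO library leaves 1, whose spread is then taken from the standard libraries. It was 1 under the other settings, the replicate block included. Log2 fold changes of Lars2 ran from 0.16 to 1.91 when each library was left out, and the replicate block gave 1.48 with an adjusted p of 2.55e-32. Over all genes, DESeq2 called 39 higher and 45 lower, the fit on summed transcripts 15 and 13, and the replicate block 184 and 166. The block pairs libraries by replicate number, and whether these share a culture is not stated. Deviations from the group means correlated by 0.035 for number 1 and by -0.094 for number 2. With 2 AHARIBO libraries, their deviations mirror each other, so these values cannot show whether the pairing is real. The median log2 fold change of the cytosolic members was 0.025 with library size only (all genes 0.032), 0.064 with duplicates kept (all genes -0.018), and 0.018 with 1 transcript per gene (all genes 0.025), and from -0.0098 to 0.00084 when each library was left out. The share of reads on cytosolic members was 0.747% in standard and 0.815% in AHARIBO RIBO-seq with duplicates kept, and 0.737% and 0.747% with transcripts summed per gene. For mitochondrial members it was 0.0739% and 0.182% with duplicates kept, 0.0772% and 0.0920% with transcripts summed, and 0.0730% and 0.0722% without Lars2. Of 540 values of single members under 15 alternatives, 500 kept their direction and their side of the threshold, and 3 (Lars2) kept their direction only. The 500 include Mars2, Nars2, Pars2, Vars2 and Wars2 in DESeq2, where no adjusted p was given. The longest-transcript setting reuses the main fit, so members whose longest transcript was already used, Lars2 among them, could not change. The other 37 values changed sign, none of them for a called member or past the threshold. With library size only, the values that changed sign were Cars 0.00073, Gars 0.0033, Hars 0.020, Rars 0.013, Wars 0.030 and Tars2 0.024. With the replicate block, they were Wars 0.027 and Aars2 -0.070. With duplicates kept, they were Cars 0.065, Mars 0.0011, Nars 0.049, Rars 0.062, Sars 0.012 and Sars2 -0.022. With 1 transcript per gene, they were Hars 0.013, Rars 0.0065, Wars 0.023 and Tars2 0.016, and with the longest transcript Tars2 0.0030. When each library was left out, the ranges were -0.051 to 0.017 (Hars), -0.075 to 0.18 (Aars2), -0.059 to 0.093 (Mars2), -0.10 to 0.15 (Sars2), -0.068 to 0.0023 (Mars), -0.29 to 0.21 (Tars2), -0.17 to 0.26 (Vars2), -0.035 to 0.028 (Wars), -0.00024 to 0.052 (Qars) and -0.096 to 0.22 (Iars2). The cause of these changes was not tested. Depth limits the mitochondrial members most, with counts of a few CPM for Wars2 and Pars2.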
